A study of Mus musculus with 7 samples.

Results

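*Znf41-ps*, *Zfp992* and *Zfp991* are zinc finger genes that lie within 1.36 Mb of each other on mouse chromosome 4, and 3 of the 55335 genes of the dataset are described here. They were chosen by their position and because their counts were higher in *Smchd1*-null than in wild-type (WT) cells, so that their own difference between the genotypes is given as a description, with no p-value. *Znf41-ps* is annotated as an unprocessed pseudogene, and *Zfp992* and *Zfp991* as protein-coding genes.

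The data are gene-level counts of nanopore direct cDNA reads from 7 libraries of neural stem cells (NSCs) of the mouse, which are dividing brain precursors kept in culture. The 4 WT and the 3 *Smchd1*-null samples were all of strain FVB/N and were grown with the growth factors EGF and bFGF. The null samples carried *Smchd1*MommeD1, a null allele of *Smchd1*. WT replicate 2 and *Smchd1*-null replicates 1 and 2 made up batch 1. Batch 2, made with another version of the library kit, held *Smchd1*-null replicate 3 together with WT replicates 3 and 4, and WT replicate 1 was in both. The labels do not say whether the samples of a genotype came from separate animals or cultures, so p-values measure only the spread between these samples, which may be technical.

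Most zinc finger genes of such clusters encode KRAB zinc finger proteins. In these, a row of C2H2 fingers reads the DNA sequence, often that of a transposable element, and the KRAB domain recruits TRIM28 (KAP1), which brings histone methyltransferases and silences the bound site. The genes lie in clusters that grew by duplication, and neighbouring copies can be nearly identical. *Smchd1* encodes a chromatin protein of the SMC family that is needed for silencing on the inactive X chromosome and at several imprinted and clustered autosomal genes.

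In their annotated sequence (Gencode M21, build GRCm38), the genes were nearly copies of each other. The transcripts of *Znf41-ps* and *Zfp991* were 99.5% identical over 2410 aligned columns, those of *Znf41-ps* and *Zfp992* 99.3% over 2413, and those of *Zfp992* and *Zfp991* 99.3% over 2491. Their most similar transcripts apart from each other and from *Zfp993*, which lies between *Zfp992* and *Zfp991*, were 87.8% to 88.6% identical. In some genes of this family the exon before the last carries the A box of the KRAB domain. That exon had 127 bases in all 3 genes and is shown here because only 1 base differed, given in capitals where it departs from *Zfp992*. *Znf41-ps* (chr4:145826109-145826235), *Zfp992* (chr4:146464404-146464530) and *Zfp991* (chr4:147176747-147176873) are read on the plus strand of GRCm38.
Znf41-ps: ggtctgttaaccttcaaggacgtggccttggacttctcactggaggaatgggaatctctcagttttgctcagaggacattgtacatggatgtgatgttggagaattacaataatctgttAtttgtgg
Zfp992: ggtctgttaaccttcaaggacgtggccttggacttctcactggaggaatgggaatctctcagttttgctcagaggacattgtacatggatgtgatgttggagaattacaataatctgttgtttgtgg
Zfp991: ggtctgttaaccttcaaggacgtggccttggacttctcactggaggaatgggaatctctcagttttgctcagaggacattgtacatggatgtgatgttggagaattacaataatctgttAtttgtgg
*Znf41-ps* and *Zfp991* were identical over this exon. The introns that flank it had 842 and 1451 bases in *Znf41-ps* and in *Zfp991*, and 841 and 1450 bases in *Zfp992*.

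The last exon carries the finger array. A first unit of 84 bases, which holds 1 C2H2 finger and the linker to the next, is shown to give the scale of the likeness within the array, with capitals again for a base that departs from *Zfp992*. The units are at chr4:145828253-145828336, chr4:146466547-146466630 and chr4:147178891-147178974 on the plus strand.
Znf41-ps: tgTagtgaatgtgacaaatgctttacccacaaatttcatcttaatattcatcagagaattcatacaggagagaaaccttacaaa
Zfp992: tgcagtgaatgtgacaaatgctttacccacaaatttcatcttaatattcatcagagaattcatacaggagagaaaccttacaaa
Zfp991: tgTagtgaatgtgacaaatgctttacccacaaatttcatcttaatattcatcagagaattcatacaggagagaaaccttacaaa
The base in capitals is C569T, counted from 1 at the first base of the last exon, with the base of *Zfp992* first. Over the 1562 coding bases of that exon, *Znf41-ps* differed from *Zfp992* at 9 bases and *Zfp991* at 7, and 5 of these differences (T478A, C569T, A909C, A994G and G1135C) were shared by both. *Znf41-ps* alone carried 4 differences and *Zfp991* alone carried 2. *Zfp992* and *Zfp991* each had 1719 coding bases, 573 codons and 11 matches to the C2H2 pattern (cysteine, any 2 residues, cysteine, any 12, histidine, any 3 to 5, histidine).

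The difference that sets the pseudogene apart in this exon was C189T, which makes a stop codon. The 63 bases around it are shown with that codon in capitals, at chr4:145827845-145827907, chr4:146466139-146466201 and chr4:147178483-147178545 on the plus strand.
Znf41-ps: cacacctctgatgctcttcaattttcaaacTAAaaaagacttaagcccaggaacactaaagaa
Zfp992: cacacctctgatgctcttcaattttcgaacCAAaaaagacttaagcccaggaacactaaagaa
Zfp991: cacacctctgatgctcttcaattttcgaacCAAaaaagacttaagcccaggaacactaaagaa
In the frame of *Zfp992*, *Znf41-ps* had 105 codons before this stop and no C2H2 match among them, while its 11 finger matches lay after it. *Zfp992* and *Zfp991* had 563 codons and 11 matches from the same exon boundary to their stop. *Znf41-ps* also carried G185A in the stretch shown. These are sequences of the reference genome and were not read from the FVB/N cells.

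The part of the annotated sequence found in no other annotated gene was small in *Znf41-ps* and *Zfp991* and larger in *Zfp992*. Reads were aligned to the whole genome, and sequence outside annotated transcripts was not searched, so these shares do not measure how well reads could be placed. Cut into words of 31 bases, 6.6% of the words of *Znf41-ps* and 12% of those of *Zfp991* occurred in no other annotated gene. For *Zfp992* the share was 51.7%, since its last exon has 4312 bases against 2256 and 2255 in *Znf41-ps* and *Zfp991*. The authors counted the primary alignment of each read, so a read of one copy may have been counted for another, and the split of counts between the 3 genes is uncertain. For this reason the sum of the 3 genes, chosen as a measure after the values were seen, is given beside them. No annotated exon of another gene overlapped the exons of the 3 genes on either strand.

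**Figure D1:**
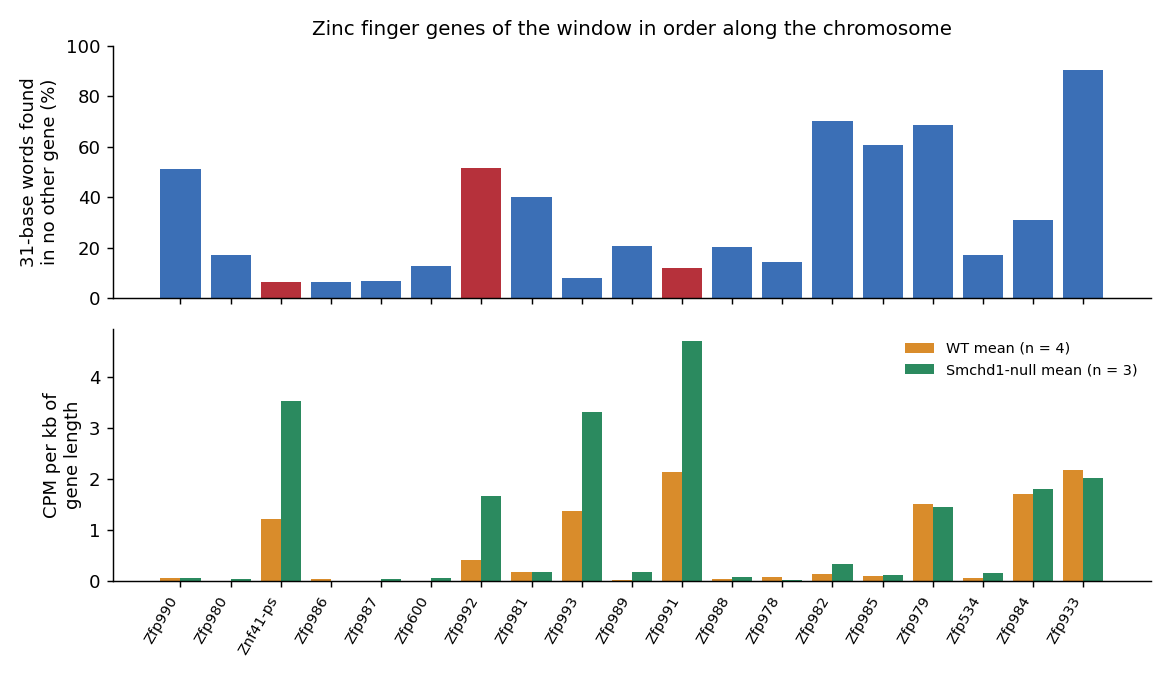
The 19 genes of the chromosome 4 window whose symbol starts with Zfp or Znf, in their order along the chromosome. Upper bars give the percentage of a gene's 31-base words that occur in no other annotated gene (red, *Znf41-ps*, *Zfp992* and *Zfp991*; blue, the others), and lower bars give the mean level per library as CPM per kb of gene length in WT (orange, n = 4) and *Smchd1*-null (green, n = 3). In *Smchd1*-null the lower bars are tallest in *Zfp991*, *Znf41-ps* and *Zfp993*, whose bars in the upper row are 12%, 6.6% and 8.1%. This order depends on the division by length. In CPM the *Smchd1*-null mean of *Zfp993* (4.24) was below those of *Zfp933* (8.69) and *Zfp992* (7.62).

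*Znf41-ps* (ENSMUSG00000084350.1) lies on the plus strand of chromosome 4 from 145825237 to 145829942 and has 3 exons with 2413 bases. It had 10, 22, 8 and 14 counts in WT replicates 1 to 4 and 20, 51 and 52 counts in *Smchd1*-null replicates 1 to 3. In CPM, which scales the counts to a library of 1 M (mega) after TMM scaling, these were 2.44, 4.89, 2.10 and 2.40 in WT and 7.51, 6.79 and 11.3 in *Smchd1*-null. All 3 null libraries lay above all 4 WT libraries, with WT replicate 2 well above the other WT samples and *Smchd1*-null replicate 3 above the other null samples. The mean level was 2.96 ± 1.30 CPM (SD, n = 4) in WT and 8.52 ± 2.40 CPM (SD, n = 3) in *Smchd1*-null, a ratio of 2.88. The log2 fold change from the limma fit was 1.46 (SE 0.35). Within the batches the difference was uneven. It was 0.51 in mean log-CPM in batch 1 and 2.13 in batch 2. Here and for the other genes WT replicate 1, whose reads from both batches had been summed, was left out, so that WT replicate 2 alone stands for WT in batch 1.

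*Zfp992* (ENSMUSG00000070605.4), which codes for an array of 11 fingers, lies on the plus strand from 146449023 to 146470292. It had 8, 12, 8 and 6 counts in WT replicates 1 to 4 and 19, 58 and 37 counts in *Smchd1*-null replicates 1 to 3. These were 1.95, 2.67, 2.10 and 1.03 CPM in WT and 7.13, 7.72 and 8.01 CPM in *Smchd1*-null. The null libraries were close to each other and far above every WT library, the lowest null value being 2.68 times the highest WT value. The means were 1.94 ± 0.68 CPM (SD, n = 4) in WT and 7.62 ± 0.45 CPM (SD, n = 3) in *Smchd1*-null, a ratio of 3.94 and the largest of the 3 genes. The log2 fold change was 1.92 (SE 0.35), and by batch the null mean log-CPM exceeded the WT mean by 1.34 (batch 1) and 2.14 (batch 2). *Zfp992* passed the filter on low counts through the null libraries. Its unscaled CPM reached 2.18, the value of 10 counts in a library of median size, in all 3 null libraries but in 1 of 4 WT libraries. For *Znf41-ps* this held in 3 of 4 WT libraries and for *Zfp991* in all 4.

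*Zfp991* (ENSMUSG00000067916.9), the other gene with 11 fingers, lies on the plus strand from 147132038 to 147180579. It had 33, 28, 21 and 31 counts in WT replicates 1 to 4 and 31, 104 and 73 counts in *Smchd1*-null replicates 1 to 3. The levels were 8.06, 6.22, 5.51 and 5.32 CPM in WT and 11.6, 13.8 and 15.8 CPM in *Smchd1*-null. Again no null library fell among the WT libraries, and the lowest null value was 1.44 times the highest WT value, which was that of WT replicate 1. The means were 6.28 ± 1.25 CPM (SD, n = 4) in WT and 13.8 ± 2.08 CPM (SD, n = 3) in *Smchd1*-null, a ratio of 2.19. The log2 fold change was 1.08 (SE 0.24), and within batches 1 and 2 the null mean log-CPM was higher by 0.98 and 1.48.

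For all 3 genes the null libraries lay above all WT libraries in CPM, an order that 2.52% of the 13305 tested genes had. The limma fit across all tested genes called 0.474% of them higher in *Smchd1*-null at an adjusted *P*-value under 0.25, the wider cutoff of the study, and the 3 genes were among these. Both facts follow from how the genes were chosen, as do their calls in the other fits, which use the same counts and are given only to show how far a call depended on the fit. edgeR called only *Zfp992*, where it called 0.0601% of all genes in either direction, and DESeq2 called all 3, where it called 0.241%. None of the 3 was called without WT replicate 1, without *Smchd1*-null replicate 1 or without *Smchd1*-null replicate 2. Those fits called only 11, 1 and 2 genes in all, so that calls were lost across the genome and not in these 3 genes alone. As the libraries were made from bulk cultures, more RNA per cell and more cells of an expressing kind cannot be told apart.

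**Figure D2:**
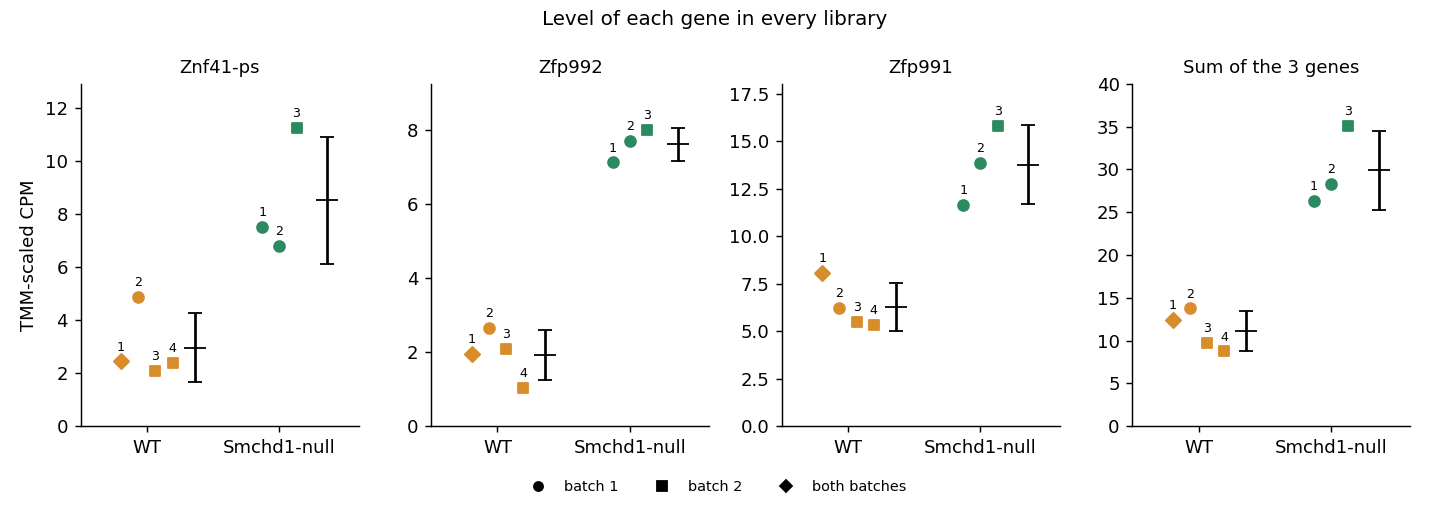
Level of *Znf41-ps*, *Zfp992*, *Zfp991* and their sum in TMM-scaled CPM, with 1 point per library, its replicate number above it and its batch as the symbol (circle, batch 1; square, batch 2; diamond, both). Black bars are the mean ± SD of WT (orange, n = 4) and *Smchd1*-null (green, n = 3), and in each panel the 3 null points lie above the 4 WT points.

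The sum does not depend on how reads were split between these 3 copies. It was 51, 62, 37 and 51 counts in WT replicates 1 to 4 and 70, 213 and 162 counts in *Smchd1*-null replicates 1 to 3. In CPM, this was 12.5, 13.8, 9.70 and 8.75 in WT and 26.3, 28.3 and 35.1 in *Smchd1*-null, so that the genotypes did not overlap. The mean of the sum was 11.2 ± 2.34 CPM (SD, n = 4) in WT and 29.9 ± 4.60 CPM (SD, n = 3) in *Smchd1*-null, a ratio of 2.68. Fitted as 1 feature in place of the 3 genes, the sum had a log2 fold change of 1.37 (SE 0.20), and its mean log-CPM was higher in the null samples by 0.96 within batch 1 and by 1.87 within batch 2. The SE was below that of each gene alone. With the counts of *Zfp993* added, the level was 12.9 ± 2.86 CPM (SD, n = 4) in WT and 34.1 ± 7.43 CPM (SD, n = 3) in *Smchd1*-null.

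The contribution of each gene to the summed counts was also compared. *Zfp991* held 56.9 ± 8.44% of the 3 genes' counts in WT (SD, n = 4) and 46.1 ± 2.43% (SD, n = 3) in *Smchd1*-null. *Znf41-ps* held 26.0 ± 7.12% and 28.2 ± 4.09%, and *Zfp992* held 17.1 ± 4.32% and 25.7 ± 2.51%. The share of *Zfp992* was higher in each null library than in any WT library, while those of the other genes overlapped between the genotypes. These shares rest on 37 to 213 counts per library and on the uncertain split of reads.

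Per kb of gene length, the order of the levels was the same in all 7 libraries. *Zfp991* was highest, with a level of 2.15 ± 0.43 CPM per kb (SD, n = 4) in WT and 4.72 ± 0.71 CPM per kb (SD, n = 3) in *Smchd1*-null. *Znf41-ps* followed with 1.23 ± 0.54 CPM per kb (SD, n = 4) in WT and 3.53 ± 1.00 CPM per kb (SD, n = 3) in *Smchd1*-null, and *Zfp992* was lowest with 0.426 ± 0.149 and 1.68 ± 0.098 CPM per kb. Across libraries the ranges of *Zfp991* and *Znf41-ps* overlapped within each genotype, from 1.82 to 2.76 against 0.869 to 2.02 CPM per kb in WT and from 3.99 to 5.42 against 2.81 to 4.67 CPM per kb in *Smchd1*-null. On this scale the range of *Zfp992* did not reach that of *Znf41-ps* in either genotype. The paper states that long-read protocols leave out fragmentation, and it found gene length only weakly tied to expression in these data. Counts of such reads may therefore not need division by length. The place of *Zfp992* came from the division by its length of 4550 bases against 2413 in *Znf41-ps*. In CPM the ranges of both genes overlapped in each genotype, they were equal at 2.10 CPM in WT replicate 3, and *Zfp992* was above *Znf41-ps* in *Smchd1*-null replicate 2.

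The 3 genes are part of a cluster. Between the first and the last gene named Zfp in this stretch of chromosome 4, from 145510759 to 147848366, lie 19 genes named Zfp or Znf, 15 of them on the plus strand. The window examined was wider than this span, with the first gene start in it at 145213463 and the last gene end at 147987205. Of the 29 protein-coding genes of the window, 17 had at least 5 C2H2 matches in their coding sequence, against 2.24% of the 21849 protein-coding genes searched. *Znf41-ps* and *Zfp992* were 0.619 Mb apart and *Zfp992* and *Zfp991* 0.662 Mb, with 3 other genes named Zfp in each interval. *Rex2*, with 15 C2H2 matches, also lies in the second interval.

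Of the other 16 zinc finger genes, 4 passed the filter on low counts, and none of these was called higher or lower by limma, edgeR or DESeq2, or had an unadjusted *P*-value under 0.05 with limma, where 7.11% of tested genes were higher and 6.74% lower. As limma called 0.474% of all tested genes higher and 0.609% lower, few calls could arise among 4 genes. The annotated sequence of *Zfp993* was short, with 1275 bases and 2 C2H2 matches. Its 940 coding bases are not a whole number of codons, so the annotated sequence may be incomplete. *Zfp993* was 99.4% to 99.7% identical to the 3 genes over 940 to 1019 aligned columns, so reads may have been exchanged with it too. It had 13, 6, 5 and 7 counts in WT replicates 1 to 4 and 7, 19 and 35 counts in *Smchd1*-null replicates 1 to 3. Like *Zfp992*, it passed the filter through the null libraries, reaching an unscaled 2.18 CPM in all 3 of them but in 1 of 4 WT libraries. The genotypes overlapped, since WT replicate 1 lay above *Smchd1*-null replicates 1 and 2 in CPM, and the fitted log2 fold change of 0.78 had an SE of 0.48 (adjusted *P*-value 0.453, limma). The remaining 3 genes that were tested, *Zfp979*, *Zfp984* and *Zfp933*, lie on the minus strand at the far end of the cluster. Their log2 fold changes were -0.28, 0.05 and -0.15, with adjusted *P*-values of 0.656, 0.954 and 0.793 (limma). Summed, they had 20.6 ± 2.77 CPM (SD, n = 4) in WT and 19.9 ± 2.43 CPM (SD, n = 3) in *Smchd1*-null. More of the annotated sequence was distinct in *Zfp979* and *Zfp933*, where 68.6% and 90.6% of the 31-base words occurred in no other annotated gene, than in *Zfp984*, where the share was 31.2%.

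The 12 zinc finger genes of the window that failed the filter were close to the limit of detection and were not tested. Together they had 10, 8, 8 and 8 counts in WT replicates 1 to 4 and 12, 22 and 15 counts in *Smchd1*-null replicates 1 to 3. As a summed level this was 1.92 ± 0.46 CPM (SD, n = 4) in WT and 3.56 ± 0.83 CPM (SD, n = 3) in *Smchd1*-null. Each null library lay above each WT library, the lowest null value being 1.20 times the highest WT value. How often sums of other genes with such low counts have this order was not computed. *Zfp600*, picked out after its values were seen, was the only one of the 12 with a count in every null library and none in WT. Its counts were 1, 2 and 2 in the null replicates, and 0 counts in the 4 WT libraries together allow a level of up to 0.165 CPM, which covers counting error only. *Gm13212*, which lies in the cluster under another kind of name and had the most C2H2 matches of it with 20, was likewise picked out afterwards. It had 1, 1, 3 and 0 counts in WT and 2, 8 and 8 counts in *Smchd1*-null, and its CPM values overlapped between the genotypes.

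**Figure D3:**
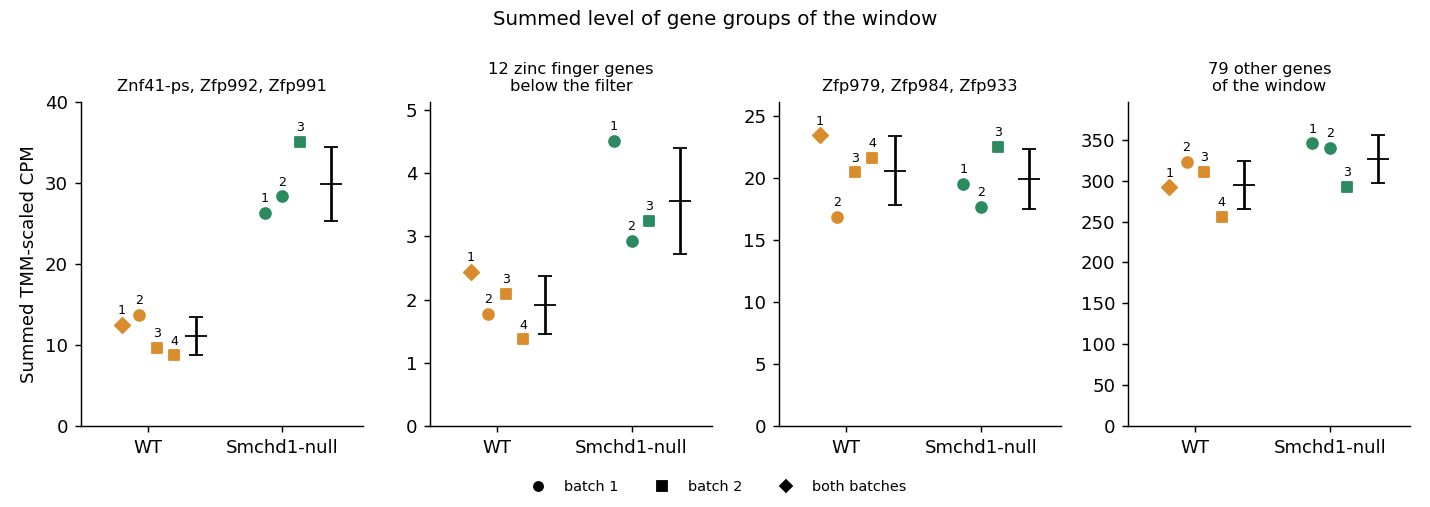
Summed TMM-scaled CPM of 4 groups of genes of the window in each library (circle, batch 1; square, batch 2; diamond, both), with the mean ± SD of WT (orange, n = 4) and *Smchd1*-null (green, n = 3). The genotypes do not overlap for *Znf41-ps*, *Zfp992* and *Zfp991*, nor for the 12 zinc finger genes below the filter, whose sum is under 5 CPM in every library, and they overlap for *Zfp979*, *Zfp984* and *Zfp933* and for the 79 other genes. How often such low sums of other genes do not overlap was not computed.

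Genes of the window under other names were compared to show whether the difference extended to them. These 79 genes include *Gm13212* and *Rex2*, whose coding sequences had 20 and 15 C2H2 matches and which were not tested. Of the 79 genes 19 were tested, and none was called by limma, edgeR or DESeq2. Over all tested genes limma called 0.474% higher and 0.609% lower, so that few calls could arise among 19 genes. At an unadjusted *P*-value under 0.05 with limma, 2 of the 19 (10.5%) were higher and none was lower, against 7.11% and 6.74% of all tested genes. The median log2 fold change of the 19 was 0.11, against 0.005 for all tested genes. Those with the smallest *P*-values were *Gm13226* (log2 fold change 1.30, SE 0.44, adjusted *P*-value 0.293), *Gm13245* (0.95, SE 0.37, adjusted *P*-value 0.322) and *Mfn2* (-0.28, SE 0.15, adjusted *P*-value 0.398), all by limma. *Gm13226* and *Gm13245* are processed pseudogenes, and *Mfn2* encodes mitofusin, a protein of mitochondrial fusion. *Gm13226* had 1.95, 3.78, 4.46 and 3.43 CPM in WT replicates 1 to 4 and 4.88, 11.98 and 4.98 CPM in *Smchd1*-null replicates 1 to 3. All 3 null libraries lay above all 4 WT libraries, with *Smchd1*-null replicate 2 far above the others and the lowest null value 1.09 times the highest WT value. Of the 19 genes 1 had this order, against 2.52% of all 13305 tested genes. Among the untested genes, picked out after their values were seen, *Gm13169*, *Gm13233* and *Gm20760* had the same order in CPM, and none had the opposite order. The share of all untested genes with either order was not computed. A gene with no count in some WT library could not have the opposite order. The counts of these 3 genes were low, at 1, 2, 2 and 0 in WT against 3, 7 and 3 in *Smchd1*-null for *Gm13169*. For *Gm13233* they were 3, 1, 0 and 2 against 4, 7 and 7, and for *Gm20760* 0, 1, 0 and 0 against 3, 2 and 2. In the 3 Mb on each side of the window, 51 genes were tested and none was called by any of the 3 tools, with a median of 0.14. At an unadjusted *P*-value under 0.05 (limma), 8 of these (15.7%) were higher and 3 (5.88%) lower, against 7.11% and 6.74% of all tested genes.

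**Figure D4:**
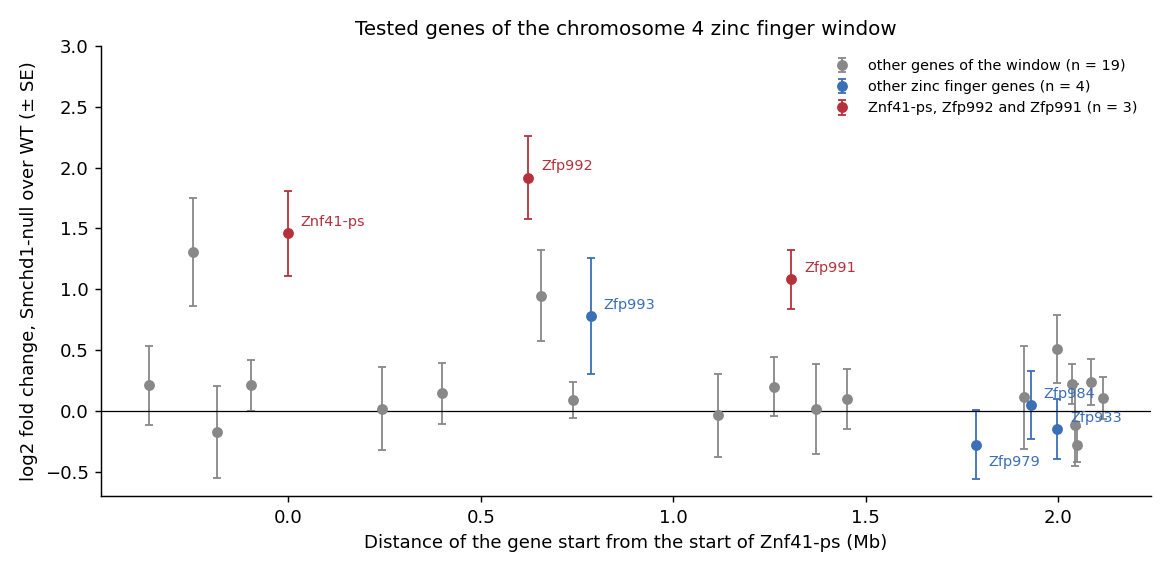
The log2 fold change of *Smchd1*-null over WT (± SE, limma) of the 26 tested genes of the window, plotted against the distance of each gene's start from that of *Znf41-ps* in Mb. *Zfp992*, *Znf41-ps* and *Zfp991* (red) are at 1.92, 1.46 and 1.08, *Zfp993* (blue) at 0.78, and *Zfp979*, *Zfp984* and *Zfp933* (blue) between -0.28 and 0.05, with other genes in grey.

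Zinc finger genes were not generally higher elsewhere. Without the 3 genes, 420 genes of the genome have a symbol that starts with Zfp or Znf, of which 313 were tested. None was called higher or lower, where limma called 0.474% of all tested genes higher and 0.609% lower. edgeR and DESeq2 called none either. At an unadjusted *P*-value under 0.05 with limma, 8 (2.56%) were higher and 24 (7.67%) lower, against 7.11% and 6.74% of all tested genes. The share that was lower was thus near that of all genes, and the share that was higher was below it. The median log2 fold change of the zinc finger genes was -0.10. The 5 with the smallest *P*-values were all lower in *Smchd1*-null, *Zfp383* by a log2 fold change of -0.88, *Zfp609* by -0.48, *Zfp398* by -0.69, *Zfp68* by -0.51 and *Zfp40* by -0.49, with adjusted *P*-values between 0.277 and 0.312 (limma). The calls in this list changed with the samples used. Without WT replicate 2, 10 zinc finger genes were called higher and 36 lower. That fit called 1490 of all 12891 tested genes higher and 1434 lower. Without *Smchd1*-null replicate 3, 17 zinc finger genes were called higher and 42 lower, where 1596 of all 13395 tested genes were higher and 1557 lower. In all, these fits called 2924 and 3153 genes, compared with 144 in all libraries. How many zinc finger genes were tested in them was not counted, so no share is given.

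Genes that act with KRAB zinc finger proteins in silencing, such as corepressors, heterochromatin proteins and methyltransferases, were examined as a list of 27. Only *Smchd1* itself was called, by each of limma, edgeR and DESeq2. It had 55.7 to 74.7 CPM in WT and 12.8 to 18.4 CPM in *Smchd1*-null (log2 fold change -2.15, SE 0.18, adjusted *P*-value 1.10e-04, limma), which fits the labels. Of the other 26, 1 (3.85%) was higher and 2 (7.69%) were lower at an unadjusted *P*-value under 0.05 with limma, against 7.11% and 6.74% of all tested genes. The log2 fold changes of the 26 ranged from -0.75 to 0.40 with a median of -0.09. *Trim28*, named for its role as the corepressor, had 307 ± 68.3 CPM (SD, n = 4) in WT and 353 ± 26.3 CPM (SD, n = 3) in *Smchd1*-null. The fit gave it a log2 fold change of 0.20 with an SE of 0.13 (adjusted *P*-value 0.491, limma). *Setdb1*, the histone methyltransferase recruited by it, had 12.3 ± 3.27 CPM (SD, n = 4) in WT and 11.1 ± 2.20 CPM (SD, n = 3) in *Smchd1*-null.

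The tested genes whose pattern over the 7 libraries was most like that of each gene were found by the root mean square (RMS) difference of log-CPM after the mean of each gene was subtracted, a measure that describes these libraries and carries no test. For *Zfp992* these were *9030624G23Rik* on chromosome 12 (RMS difference 0.22), *Dcaf12l1* on the X chromosome (0.32) and *Znf41-ps* (0.39), against a median of 0.98 over all 13304 other genes. For *Znf41-ps* they were *Gm7240* on chromosome 13 (0.26), *Rnf128* (0.31) and *Dcaf12l1* (0.34) on the X chromosome, with *Zfp992* and *Zfp991* at ranks 13 and 17. For *Zfp991* they were *Efcab1* on chromosome 16 (0.19), *AC126438.1* on chromosome 17 (0.23) and *Stk10* on chromosome 11 (0.26). *Znf41-ps* and *Zfp992* came at ranks 154 and 532 there, so the near-identical neighbours of *Zfp991* were not the genes closest to it in pattern.

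Total counts ranged from 2.74 to 7.74 M per library, where 3 counts correspond to between 0.399 and 1.13 CPM. The libraries fitted their cell type label. The summed level of 8 NSC markers, among them *Nes*, *Sox2* and *Fabp7*, was 8382 to 12870 CPM in WT and 8125 to 9543 CPM in *Smchd1*-null, and markers of microglia and blood (3 genes) and of fibroblasts and endothelium (3 genes) stayed under 5 CPM. Markers of neurons (4 genes) summed to 12.9 to 26.1 CPM in WT and 11.7 to 16.9 CPM in *Smchd1*-null, those of astrocytes (4 genes) to 28.6 to 113 and 31.5 to 37.9 CPM, and those of the oligodendrocyte lineage (4 genes) to 796 to 1053 and 862 to 891 CPM. None of the 18 markers that were tested was called by limma, and the ranges of each list overlapped between the genotypes. Their part in the levels of the 3 zinc finger genes was not tested.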

How the data were processed

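The authors base-called nanopore direct cDNA reads with Guppy, aligned them to mm10 with minimap2 2.17 (version from the submitters' processing notes) and, with featureCounts on Gencode M23, counted each read's primary alignment. The deposited values are whole-number counts per gene, not normalised, with a gene length in bases. Strand use in counting was not stated, reads of near-identical genes are counted where the primary alignment falls, and runs of 1 sample in both batches had been summed.

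Symbols, coordinates and sequences were taken from Gencode M21 on the same build, GRCm38. Of 55335 identifiers 55154 matched with the version ignored and 181 did not. The 3 genes, lists and tests were chosen with earlier results of these data known. Genes were filtered with filterByExpr and scaled by TMM, and voomWithQualityWeights with genotype as the only term was fitted to all 7 samples and 13305 genes as in the study, two-sided, with Benjamini-Hochberg adjustment and a threshold of 0.25. Log-CPM used a prior count of 2. Software was R 4.3.3, limma 3.58.1, edgeR 4.0.16, DESeq2 1.42.0 and blastn 2.17.0. The pipeline was tested on simulated counts. Identities are of the longest-scoring aligned stretch of annotated transcripts.

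Genes named are the 3 genes, *Smchd1*, the other zinc finger genes of the window that passed the filter, the 5 other zinc finger genes with the smallest *P*-values, called genes of the window or else the 3 with the smallest *P*-values, called repression partners, and the 3 genes most alike in pattern to each. *Zfp600*, *Gm13212*, *Gm13169*, *Gm13233*, *Gm20760*, *Trim28* and *Setdb1* are named outside this rule. Alternatives were edgeR, DESeq2, voom without sample weights, other scaling factors, other filters, a batch covariate (with and without WT replicate 1), a replicate block, removal of the length trend and each replicate left out, and the sum of the 3 genes was added after the values were seen.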

Additional observations from a re-analysis of the deposited data

Results flagged for a closer look

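The highest and the lowest of the 4 WT samples were compared with the others for 9 results: the log-CPM of the 3 zinc finger genes, of their sum, of *Zfp993*, *Zfp979*, *Zfp984* and *Zfp933*, and of *Smchd1*. In 1 of them the gap to the next sample passed Dixon's 95% critical value, which chance alone passes in about 1 group in 20. *Zfp993* was at a log-CPM of 1.85 in WT replicate 1, from 13 counts, while the next WT sample was at 0.81. *Znf41-ps* in WT replicate 2 (log-CPM 2.41, next 1.52) came close to the same limit without passing it. With 3 samples, *Smchd1*-null was not compared in this way.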

How the results depend on the processing

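The log2 fold changes stayed above 0 under every alternative that could be fitted, between 1.21 and 1.81 for *Znf41-ps*, 1.66 and 2.05 for *Zfp992*, 0.99 and 1.25 for *Zfp991* and 1.27 and 1.49 for their sum. Leaving out each library in turn gave 1.27 to 1.81, 1.74 to 2.03, 0.99 to 1.21 and 1.27 to 1.49 in the same order. At 10 counts or more in every sample *Zfp991* and the sum could be fitted, and *Znf41-ps* and *Zfp992* could not. Whether a gene was called at 0.25 varied more. *Zfp992* alone was called by edgeR, by voom without sample weights, with all genes of at least 1 count, and without WT replicate 3 or 4, and *Znf41-ps* was not called with the batch covariate or the replicate block. The replicate numbers did not pair the samples (correlations of -0.04, 0.36 and 0.09 between same-numbered samples), and no call of a zinc finger gene outside the 3 changed with the replicate block, which gave 1.21 for *Znf41-ps*, 1.66 for *Zfp992*, 1.13 for *Zfp991* and 1.29 for the sum. The number of genes called was 144 in all, 129 with the block, 8 with edgeR, 32 with DESeq2, 10 without sample weights, 22 with all genes of at least 1 count, 346 at 10 counts or more in every sample, and 74 and 31 with the batch covariate with and without WT replicate 1. It was 11 without WT replicate 1, 43 without WT replicate 3 and 43 without WT replicate 4. Without *Smchd1*-null replicate 1 it was 1, and without *Smchd1*-null replicate 2 it was 2. No other zinc finger gene of the window was called under any alternative, but only 4 were tested in the main fit, where few calls could arise. Over the genome, 3 zinc finger genes were called lower at 10 counts or more in every sample, where 166 of all 11313 tested genes were. With each library left out 0 to 17 were called higher and 0 to 42 lower. The counts were above 0 without WT replicate 2 and without *Smchd1*-null replicate 3, in fits that called 2924 and 3153 genes in all. The cause was not tested. Counts of 6 to 104 per gene and library, and a split of reads between near-identical copies, limit the precision of each gene's value.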
